A study of Mus musculus with 4 samples.

Results

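The 9 genes *Mitf*, *Sox10*, *Pax3*, *Tfap2a*, *Zeb2*, *Bnc2*, *Bmyc*, *Kit* and *Ednrb*, regulators of the neural crest and of melanocytes, were described in the adult mouse stria vascularis (SV). They were taken by symbol from the gene lists of the deposited matrices, where all 9 were present among the 27998 genes listed for cells and the 48816 genes listed for nuclei. The question was which of them were particular to intermediate cells and which were shared with marginal cells, and whether whole cells and nuclei gave the same answer. In nuclei, *Pax3*, *Bnc2*, *Tfap2a*, *Zeb2*, *Ednrb* and *Bmyc* stood at least 15.9-fold higher in intermediate than in marginal nuclei (*Bmyc*, the least of them, 9.76-fold with doublets kept), whereas *Mitf* and *Sox10* differed 2.20-fold and 1.99-fold, and *Kit* was close to 0 UMIs in both. In cells, *Sox10* was the member whose level in marginal cells held when those with the most intermediate-cell RNA were set aside. *Mitf* fell there. Relative to intermediate cells, it still stood above each single intermediate-cell marker in captures 2 and 3 of cells, and within their range in capture 1.

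The series holds 3 captures of whole cells and 1 capture of nuclei, all prepared from CBA/J mice at P30 (postnatal day 30), with no treatment or mutant allele named in the labels. The tissue was dissociated in trypsin for the cells and lysed in a mild detergent for the nuclei. Every capture was a suspension pooled from several animals, so that differences between single mice were not measured. The p-values below describe how far differences between types varied over captures. That spread was estimated in part from all genes together, and not from each gene's 3 captures alone. The labels do not say whether the 3 cell captures came from separate pools, but the study's supplementary text counts the mice capture by capture. RNA was captured from its poly(A) end on the 10x Genomics Chromium platform, and each molecule was counted once through its unique molecular identifier (UMI). The captures held 392 to 1580 cells with 2811309 to 8340882 UMIs and 11057 nuclei with 22332501 UMIs, at a median of 3878 to 5054 UMIs per cell and 1561 per nucleus. Between any pair of libraries, 0 to 32 barcode sequences were shared.

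Intermediate cells are the melanocytes of the SV. They derive from the neural crest, in part by way of Schwann cell precursors, and carry the potassium channel that sets up the endocochlear potential. Marginal cells are an epithelium of otic origin that faces the endolymph and secretes potassium, and basal cells seal the SV from the spiral ligament through tight junctions. MITF is the master transcription factor of melanocytes, switched on by PAX3 and SOX10, and it drives pigment genes such as *Dct* and *Tyr*. KIT and EDNRB are the receptors through which melanocyte precursors receive the ligands KITL and EDN3. Loss of MITF, SOX10, PAX3, KIT or EDNRB function is known to cause deafness with pigment loss.

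The barcodes were clustered without the 9 genes, and clusters were named from markers that do not include them. Names in this text stand for clusters that are intermediate-like, marginal-like, basal-like or spindle/root-like by those markers. They comprised 979 intermediate, 132 marginal, 67 basal and 29 spindle/root cells, and 1471, 2585, 655 and 204 nuclei. All 10 marginal and all 6 basal markers were highest in their own type in cells and in nuclei, as were all 6 spindle/root markers that were detected. All 9 intermediate markers detected in cells and all 10 in nuclei were highest in the intermediate type. The clusters were named from these same markers, so these counts follow in part from the naming. The pigment genes *Pmel* and *Tyrp1*, both on that list, were nearly absent from the nuclei. They had 2 and 1 UMIs in intermediate and 3 and 1 in marginal nuclei, too few to order the types. *Dct* had 65190 UMIs in intermediate nuclei. Spindle/root cells numbered 4 in capture 1, under the minimum of 5, so that the sums over types and captures came to 11. A further 1727 cells and 3868 nuclei stayed unnamed, most of them in clusters with mitochondrial shares of 25.5% to 75.7%, and took part in no comparison. UMIs of intermediate markers were present in other types. The summed level of the 10 intermediate markers in marginal cells was 27.8% to 34.0% of that in intermediate cells over the 3 captures, and in marginal nuclei it was 4.29% of that in intermediate nuclei. A group of 43 basal nuclei also held 23880 UMIs of intermediate markers per 1000000 UMIs (counts per this number are written CPM below), against 3786 CPM in the other 612. Basal CPM levels of members in nuclei are given with and without this group, and shares of basal nuclei include it. Of the 132 marginal cells, a cluster of 56 held 11100 CPM of intermediate markers, more than its 7495 CPM of marginal markers. Levels and tests of marginal cells below include this cluster, unless marginal cells are restricted or clusters are named by another rule.

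The Mitf gene has several start sites, and the melanocyte form is known to begin at one of its own that responds to cAMP. Counting from the poly(A) end cannot tell the starts apart, so that all Mitf values below are sums over them. The 250 bases before each RefSeq start (table build GRCm38.p6) are shown for Mitf, since the gene was found in several types. For *Tyr* and *Dct*, targets of MITF and markers of intermediate cells, the same window is shown with the letters that MITF is known to read. Capitals mark TCATGTG, the core of the M-box, CACGTG, the palindromic E-box, ACAAAG, a core that SOX proteins read, and TGACGTCA, the cAMP response element, all searched on both strands.

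Mitf first start, chr6:97806808-97807057, plus strand: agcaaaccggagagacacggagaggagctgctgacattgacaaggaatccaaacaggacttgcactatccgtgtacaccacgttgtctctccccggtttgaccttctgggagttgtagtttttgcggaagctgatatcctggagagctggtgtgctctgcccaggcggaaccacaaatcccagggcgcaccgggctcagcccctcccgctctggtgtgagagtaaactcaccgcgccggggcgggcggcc
Mitf middle start, chr6:97929567-97929816, plus strand: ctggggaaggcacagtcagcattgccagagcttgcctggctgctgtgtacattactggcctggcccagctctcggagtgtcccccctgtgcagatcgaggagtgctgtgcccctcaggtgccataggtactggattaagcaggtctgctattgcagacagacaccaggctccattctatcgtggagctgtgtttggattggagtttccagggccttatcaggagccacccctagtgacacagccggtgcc
Mitf last start, chr6:97991533-97991782, plus strand: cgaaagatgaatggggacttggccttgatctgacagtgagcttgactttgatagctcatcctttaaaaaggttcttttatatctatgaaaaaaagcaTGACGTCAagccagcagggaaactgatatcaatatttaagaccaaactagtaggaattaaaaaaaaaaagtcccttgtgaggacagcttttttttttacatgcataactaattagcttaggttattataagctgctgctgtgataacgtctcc
Tyr, chr7:87493513-87493762, minus strand: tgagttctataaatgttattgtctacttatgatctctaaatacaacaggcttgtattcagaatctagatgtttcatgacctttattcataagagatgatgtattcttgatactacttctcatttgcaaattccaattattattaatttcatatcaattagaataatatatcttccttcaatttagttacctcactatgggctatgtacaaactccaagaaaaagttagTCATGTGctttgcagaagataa
Dct, chr14:118052247-118052496, minus strand: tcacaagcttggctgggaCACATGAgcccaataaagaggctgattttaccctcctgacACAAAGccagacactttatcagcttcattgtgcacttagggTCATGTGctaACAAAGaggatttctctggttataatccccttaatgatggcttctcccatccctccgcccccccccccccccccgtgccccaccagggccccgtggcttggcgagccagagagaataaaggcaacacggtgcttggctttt

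The cAMP response element stood in the window of the last Mitf start only, 153 bases before the start, and was found in 1.55% of all 32851 windows of this length. TCATGTG stood 22 bases before the *Tyr* start and in 2 places before *Dct*, and was in 3.25% of all windows. The *Dct* window also held ACAAAG in 2 places, a core found in 16.5% of all windows. Of the members, 7 matched the table with 14 windows. TCATGTG and CACGTG, the latter in 6.02% of all windows, were in 0 of the 14, and ACAAAG was in 1, before a start of *Zeb2*. The motifs share no letters where they stand in these windows, and a match is a description of the sequence and not of binding. *Sox10* and *Pax3* are named only.

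Intermediate and marginal cells were compared on UMIs summed per capture and type, with edgeR's quasi-likelihood test, the capture as a block and Benjamini-Hochberg adjustment over all genes. The filter on low counts kept 6367 genes and 7 of the 9 members. *Tfap2a* and *Kit* were too low to pass. All 7 that passed were higher in intermediate cells, where 17.5% of all genes tested were called higher and 19.2% lower. A gene passes this filter if it is abundant in a single type, so the count is a description. Without TMM scaling, which set intermediate against marginal cells 0.33 higher on the log2 scale, the genes called higher fell from 47.7% to 22.9% of all called genes, and the 7 members were still higher. How far apart the types stood depended on how marginal clusters were named. The log2 difference ran from 1.39 to 8.67 for *Zeb2*, 1.13 to 7.64 for *Ednrb*, 1.38 to 5.29 for *Pax3* and 1.86 to 5.10 for *Bmyc*. It was lowest without the rule on relative marker levels. It was highest with the stricter limit of 0.5 on a second class of markers, which left 32 marginal cells. Those cells held 0 UMIs of *Zeb2*, 1 each of *Ednrb* and *Pax3* and 3 of *Bmyc*. The upper ends thus rest on very few UMIs and are not read as sizes of the difference. Against the mean of marginal, basal and spindle/root cells, the 7 were again higher in intermediate cells, beside 18.7% of all genes (17.4% were lower). A call against this mean does not place a member above each type. For *Zeb2*, basal cells taken alone lay above intermediate cells in each capture.

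In the nucleus capture, which is 1 library and carries no test, a gene was counted when the types differed at least 2-fold with at least 10 UMIs in both together. Of the members, 8 had enough UMIs. Those at least 2-fold higher in intermediate nuclei were 7, beside 11.4% of 14166 genes, and 0 were at least 2-fold higher in marginal nuclei, beside 19.0% of genes. *Sox10* fell just short of the limit, at 1.99-fold with an exact 95% interval of 1.82 to 2.17 that covers counting error only. It reached 2.01-fold with doublets kept or without mitochondrial UMIs and 2.00-fold with a minimum of 500 genes, so that whether 7 or 8 members pass depends on the processing.

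**Figure D1:**
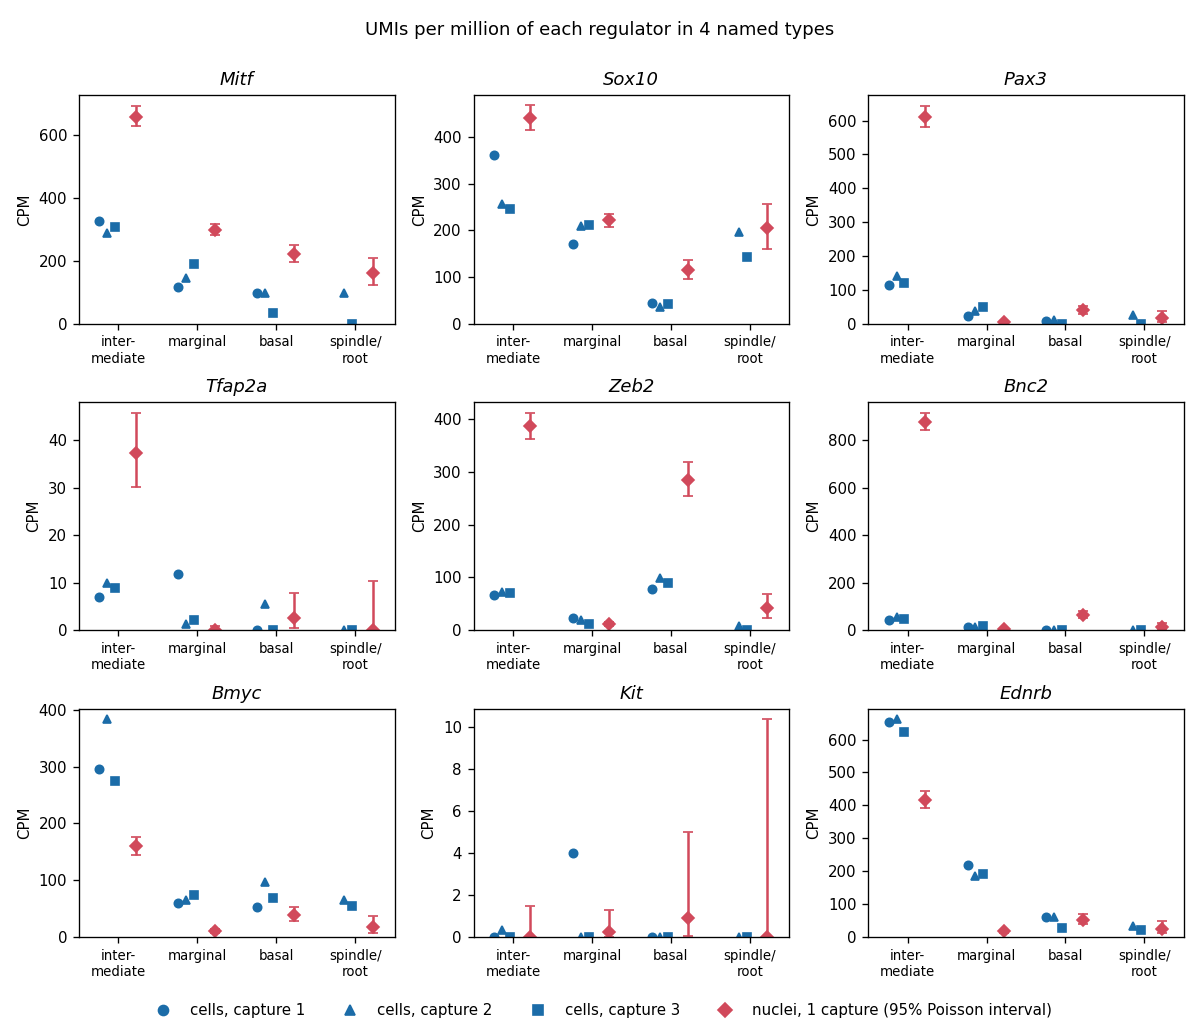
UMIs of each gene as counts per 1000000 UMIs (CPM, linear axis, own scale in each panel) of each gene in 4 named types. Blue points are the 3 captures of cells (spindle/root cells of capture 1 were too few), and red diamonds are the nucleus capture with exact 95% Poisson intervals. *Pax3*, *Tfap2a*, *Bnc2*, *Bmyc* and *Ednrb* are highest in intermediate nuclei and near 0 in marginal nuclei, while *Mitf* and *Sox10* are present in all 4 types of nuclei.

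*Mitf* (chr6:97807052-98021349, plus strand, all gene positions from GENCODE vM21 on GRCm38, the sequence of mm10) encodes the basic helix-loop-helix factor named above. Its level in intermediate cells was 325, 289 and 307 CPM in captures 1, 2 and 3, and in marginal cells 115.5, 145.7 and 189 CPM. The ranges did not overlap, and intermediate cells were higher by 1.30 ± 0.16 on the log2 scale (SE; edgeR adjusted p = 5.39e-11). Basal cells had 96.7, 98.8 and 34.7 CPM, and spindle/root cells 98.2 CPM in capture 2 and 0 UMIs in capture 3. In nuclei *Mitf* stood at 658 CPM (exact 95% Poisson interval 627 to 691) in intermediate, 299 CPM (283 to 316) in marginal, 222 CPM in basal and 163 CPM (124 to 210) in spindle/root nuclei. Without the 43 basal nuclei with intermediate-cell RNA, basal nuclei had 196 CPM (169 to 224), below marginal nuclei. *Mitf* was thus present in nuclei of all 4 types, and it was also high outside them, at 533 CPM in 85 fibrocyte nuclei and 1046 CPM in a cluster of 34 of these.

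*Sox10* (chr15:79154908-79165240, minus strand) encodes the HMG-box factor of neural crest, melanocytes and glia, which is also known from the otic epithelium. Intermediate cells had 362, 257 and 246 CPM in captures 1, 2 and 3, and marginal cells 171, 209 and 212 CPM. The ranges did not overlap, but the gap between them was narrower than the range within intermediate cells. Intermediate cells were higher by 0.78 ± 0.14 on the log2 scale (SE; edgeR adjusted p = 6.14e-07). Spindle/root cells had 196 and 143 CPM in captures 2 and 3, and basal cells 44.0, 36.7 and 41.6 CPM, below every sum of the other 3 types. The order in nuclei was similar, with 441 CPM (415 to 468) in intermediate, 222 CPM (208 to 236) in marginal, 205 CPM (161 to 258) in spindle/root and 115 CPM in basal nuclei, or 74.9 CPM (59.1 to 93.6) in basal nuclei without the 43. Marginal and spindle/root nuclei did not differ beyond their intervals. Nuclei of Reissner's membrane, another epithelium of the cochlear duct, had 192 CPM.

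*Pax3* (chr1:78101267-78197134, minus strand) encodes a paired-box factor that acts upstream of *Mitf*. Intermediate cells had 113, 142 and 121 CPM and marginal cells 23.9, 38.7 and 48.4 CPM in captures 1, 2 and 3, higher in intermediate cells by 2.03 ± 0.20 on the log2 scale (SE; edgeR adjusted p = 2.94e-22). In nuclei the levels were 610 CPM (580 to 642) in intermediate and 5.71 CPM (3.69 to 8.43) in marginal nuclei, a 106.9-fold difference with an exact 95% interval of 72.2 to 165.8. Basal nuclei had 40.4 CPM, which fell to 5.84 CPM (2.14 to 12.7) without the 43. Spindle/root nuclei had 6 UMIs, 16.8 CPM (6.18 to 36.7). *Pax3* was therefore highest in intermediate nuclei by a wide margin among the 4 main types.

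*Tfap2a* (chr13:40715302-40738376, minus strand), an AP-2 factor of the neural crest and of melanocytes, was the lowest of the transcription factors. There were 8, 28 and 23 UMIs in intermediate cells of captures 1, 2 and 3, or 7.07, 9.91 and 9.01 CPM, and 3, 1 and 1 UMIs in marginal cells. In capture 1 the marginal value of 11.95 CPM was above the intermediate one, on 3 UMIs. No test between the types was made because the gene did not pass the filter. In nuclei *Tfap2a* had 93 UMIs, 37.4 CPM (30.1 to 45.8), in intermediate nuclei and 0 UMIs in 2585 marginal nuclei. Set against a floor of 3 UMIs in place of that 0, the level in intermediate nuclei was 54.5-fold higher. The exact 95% interval of the ratio began at 43.5, and with doublets kept, when marginal nuclei had 2 UMIs, at 22.6.

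*Zeb2* (chr2:44983632-45117395, minus strand) encodes a zinc-finger repressor that migrating neural crest cells and many blood cells use. Intermediate cells had 66.3, 72.9 and 71.3 CPM in captures 1, 2 and 3, and marginal cells 23.9, 19.3 and 12.6 CPM. Intermediate cells were higher by 2.29 ± 0.26 on the log2 scale (SE; edgeR adjusted p = 2.35e-16). Basal cells, at 79.1, 98.8 and 90.2 CPM, lay above intermediate cells in each capture. Without mitochondrial UMIs the ranges overlapped, at 98.9 to 114.9 CPM in intermediate and 96.7 to 121.5 CPM in basal cells. *Zeb2* thus set intermediate cells apart from marginal cells and not from basal cells. In nuclei it stood at 386 CPM (362 to 411) in intermediate, 284 CPM (254 to 318) in basal and 12.1 CPM (9.06 to 15.8) in marginal nuclei. The basal value was 271 CPM (240 to 305) without the 43. B cell nuclei had 1139 CPM, the highest level among the named types of nuclei, and macrophages had 255, 262 and 266 CPM in captures 1, 2 and 3.

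*Bnc2* (chr4:84275095-84675275, minus strand) encodes a zinc-finger protein known from pigment cells and fibroblasts. It stood at 44.2, 56.3 and 47.4 CPM in intermediate cells and 15.9, 12.9 and 16.8 CPM in marginal cells of captures 1, 2 and 3. Intermediate cells were higher by 2.09 ± 0.29 on the log2 scale (SE; edgeR adjusted p = 1.09e-11). A single UMI was found in the 67 basal cells and 0 in the spindle/root cells of captures 2 and 3. In nuclei *Bnc2* had 877 CPM (840 to 914) in intermediate and 6.17 CPM (4.06 to 8.97) in marginal nuclei, a 142-fold difference (97.5 to 216). Basal nuclei had 64.6 CPM with the 43 and 10.7 CPM (5.34 to 19.1) without them. Outside the named types, a cluster of 50 unnamed nuclei held 887 CPM, as high as intermediate nuclei, with *Pax3* at 0 UMIs and *Sox10* at 3 UMIs.

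*Bmyc* (chr2:25706739-25707721, plus strand) encodes a short relative of MYC that lacks the DNA-binding end. It was at 296, 384 and 274 CPM in intermediate and 59.8, 65.7 and 73.6 CPM in marginal cells of captures 1, 2 and 3, a log2 difference of 2.59 ± 0.17 (SE; edgeR adjusted p = 1.99e-44). Basal cells (52.7, 96.0 and 69.4 CPM) and spindle/root cells (65.4 and 55.0 CPM) overlapped marginal cells. In nuclei *Bmyc* had 160 CPM (144 to 176) in intermediate, 39.5 CPM in basal (37.9 CPM without the 43), 16.8 CPM in spindle/root and 10.1 CPM (7.30 to 13.5) in marginal nuclei. The gene overlaps the antisense gene *A230005M16Rik*, as *Zeb2* overlaps *Zeb2os* and *Tfap2a* overlaps *Gm26688*. The study's methods name default counting settings without stating the use of strand, so reads of these pairs may not be separable. On the same strand, *Gm12421* overlaps *Bnc2* and *Mir5129* overlaps *Zeb2*, both listed for nuclei and not for cells.

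Of the receptors, *Ednrb* (chr14:103814625-103844402, minus strand), the endothelin B receptor, was high and *Kit* (chr5:75574916-75656722, plus strand), the receptor tyrosine kinase of melanoblasts, was nearly absent. *Ednrb* had 654, 662 and 622 CPM in intermediate and 219, 184 and 191 CPM in marginal cells of captures 1, 2 and 3, higher in intermediate cells by 2.04 ± 0.15 on the log2 scale (SE; edgeR adjusted p = 7.25e-39). Basal cells had 61.5, 62.1 and 27.8 CPM. In nuclei the levels were 417 CPM (392 to 443) in intermediate and 17.1 CPM (13.5 to 21.5) in marginal nuclei, a 24.4-fold difference (19.3 to 31.2), and basal nuclei had 52.9 CPM, or 40.8 CPM (29.4 to 55.2) without the 43.

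*Kit* gave 0, 1 and 0 UMIs in 133, 439 and 407 intermediate cells of captures 1, 2 and 3, and 0 UMIs in 1471 intermediate nuclei, which allows a level of up to 1.21 CPM. Marginal cells and marginal nuclei had 1 UMI each. *Kit* was therefore not detectable above a few UMIs in any of the 4 main types at this depth. Its UMIs lay elsewhere. In captures 2 and 3, 3 UMIs were in 1 of 18 fibrocyte cells and 5 in 2 of 23. Among nuclei, 12 were in 480 erythroid nuclei (4.52 CPM), 3 in 70 neutrophil nuclei and 10 in a cluster of 89 unnamed nuclei (35.4 CPM). The ligand genes were also low. *Kitl*, the KIT ligand, had 24 UMIs, 9.64 CPM, in intermediate nuclei and 5 UMIs, 1.14 CPM, in marginal nuclei. All intermediate cells had 20 UMIs, 2.63 ± 1.69 CPM (SD, n = 3), and all marginal cells 7 UMIs, 4.99 ± 3.04 CPM. The order of the means in cells was thus opposite to that in nuclei, on few UMIs, and no order is read from the cells. *Edn3*, the EDNRB ligand of melanoblasts, had 1 UMI in cells and 1 in nuclei of the main types, and 12 in unnamed cells of capture 3. *Edn1*, another ligand of endothelin receptors, was found in marginal nuclei with 80 UMIs, 18.3 CPM, against 2 UMIs in intermediate nuclei, and its UMIs in cells of the main types were 2, 6 and 6 in marginal cells of captures 1, 2 and 3.

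Since intermediate-marker RNA was present in marginal cells, each member's level in marginal cells was set beside it. As a share of the level in intermediate cells, *Sox10* in marginal cells was 47.3%, 81.3% and 86.3% in captures 1, 2 and 3, *Mitf* 35.5%, 50.4% and 61.6%, *Ednrb* 33.5%, 27.8% and 30.8%, and the summed intermediate markers 34.0%, 27.8% and 28.1%. Single intermediate markers ran from 26.5% to 53.7% in capture 1, 12.5% to 48.1% in capture 2 and 0% to 40.5% in capture 3. *Sox10* and *Mitf* lay within these marker ranges in capture 1 and above them in captures 2 and 3. The mean share was 71.6% ± 21.2 (SD, n = 3) for *Sox10*, 49.2% ± 13.1 for *Mitf*, 31.5% ± 7.43 for *Bnc2*, 29.4% ± 9.61 for *Pax3*, 26.8% ± 9.18 for *Zeb2* and 21.4% ± 4.96 for *Bmyc*.

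The marginal cells of each capture were then restricted to those at or below its median share of intermediate-marker UMIs, which lowered the summed markers to 6.45% to 14.6% of their intermediate level. *Sox10* remained at 191, 172 and 223 CPM in captures 1, 2 and 3, or 70.0% ± 19.1 (SD, n = 3) of the intermediate level. *Mitf* dropped to 80.4, 80.1 and 50.7 CPM, 23.0% ± 5.83 of the intermediate level, on 8, 28 and 10 UMIs. In these cells single intermediate markers ran from 2.15% to 25.8%, 4.38% to 21.7% and 0% to 12.35% in captures 1, 2 and 3. *Mitf*, at 24.7%, 27.75% and 16.5%, lay within this range in capture 1 and above it in captures 2 and 3. *Sox10* lay above it in each capture, and *Bmyc* (25.85%) and *Bnc2* (21.4%, on 2 UMIs) in capture 3. *Ednrb* dropped to 60.3, 74.4 and 10.1 CPM. *Pax3* had 0, 5 and 1 UMIs left, *Zeb2* 0, 2 and 1, and *Bnc2* 0, 0 and 2. *Bmyc* was at 20.1, 40.1 and 70.9 CPM, the last close to its level of 73.6 CPM in all marginal cells of capture 3. A cluster of 32 marginal cells with only 472 CPM of intermediate markers had 56 UMIs of *Sox10*, 247 CPM (187 to 321), 12 of *Mitf*, 53.0 CPM (27.4 to 92.6), 1 each of *Pax3* and *Ednrb*, and 0 of *Zeb2* and *Bnc2*. The cluster of 56 marginal cells with 11100 CPM of these markers held much of the members' UMIs in marginal cells. It had 175 of 232 for *Mitf*, 254 of 289 for *Ednrb*, 50 of 59 for *Pax3* and 25 of 27 for *Zeb2*. For *Bnc2* it had 19 of 22, for *Bmyc* 69 of 101 and for *Sox10* 185 of 306. Among marginal cells, *Mitf*, *Pax3* and *Ednrb* were lower with fewer intermediate-marker UMIs in each capture, though the exact Poisson intervals of *Mitf* and *Pax3* overlapped in capture 1. *Sox10* was lower in capture 2 and higher in captures 1 and 3, with overlapping intervals in each capture, so no direction is read for it.

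In nuclei the same restriction changed *Mitf*, *Sox10* and *Pax3* little. It lowered *Bmyc* from 10.1 to 5.68 CPM and *Ednrb* from 17.1 to 11.8 CPM, and the summed markers from 4.29% to 1.22% of their intermediate level. Marginal nuclei at or below the median share of intermediate-marker UMIs had 308 CPM of *Mitf* and 241 CPM of *Sox10*, and the remaining marginal nuclei 291 and 204 CPM. In the 520 marginal nuclei without any UMI of an intermediate marker, at a median of 1282 UMIs, *Mitf* stood at 323 CPM (282 to 367) and *Sox10* at 250 CPM (215 to 290), while *Pax3*, *Zeb2* and *Bnc2* had 3, 4 and 4 UMIs and *Ednrb* 12. *Mitf* and *Sox10* were thus as high in marginal nuclei with no intermediate-marker UMI as in those with 1 or more, at 295 and 216 CPM.

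**Figure D2:**
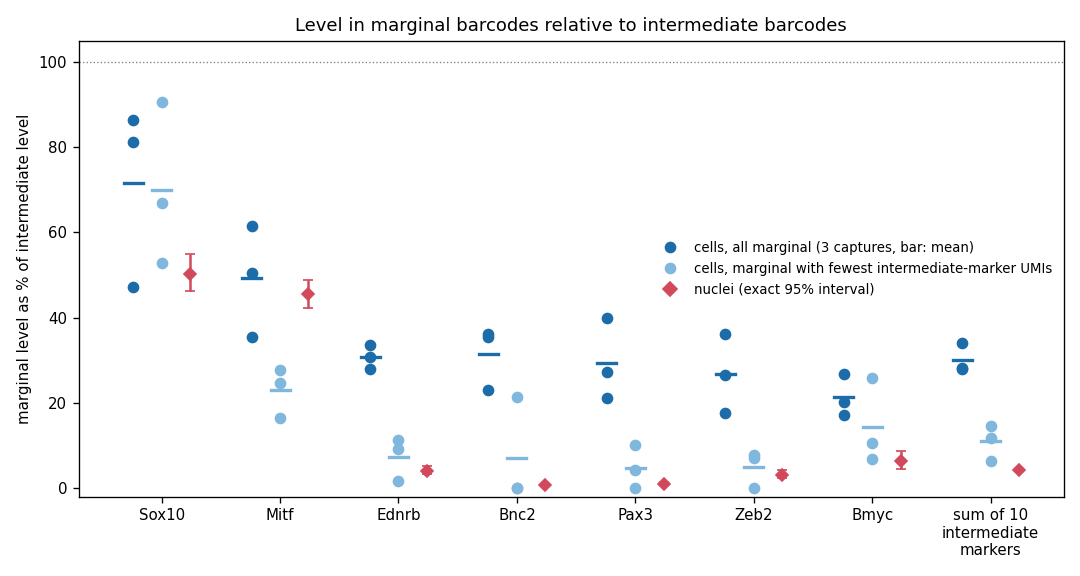
Level in marginal barcodes as a percentage of the level in intermediate barcodes (linear axis; the dotted line marks equal levels) for 7 members and the sum of the 10 intermediate markers. Dark points are the 3 cell captures, light points the same with only the marginal cells of fewest intermediate-marker UMIs, bars are means, and diamonds are nuclei with exact 95% intervals. *Sox10* stays at a mean near 70.0% in the light points, *Mitf* falls from 49.2% to 23.0% in cells but is at 45.5% in nuclei, and the others are at 6.29% or less in nuclei. *Tfap2a* and *Kit*, too low for ratios, are left out.

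Marginal cells were also compared with the mean of basal and spindle/root cells, which asks whether a member was higher there than in other types of the same suspensions. With all marginal cells, 5 of the 7 members were higher in marginal cells, beside 17.8% of all genes (13.7% were lower). *Sox10* was higher by 1.29 ± 0.22 on the log2 scale (SE; edgeR adjusted p = 6.85e-08), *Ednrb* 2.35 ± 0.28, *Mitf* 1.21 ± 0.27 and *Pax3* 1.92 ± 0.49, and *Bnc2* was called on 22 UMIs in marginal cells against 1. For *Sox10*, basal cells lay below marginal cells in every capture, while spindle/root cells, at 196 and 143 CPM, overlapped the 171 to 212 CPM of marginal cells. *Zeb2*, with a log2 fold change of -0.19 ± 0.90, and *Bmyc*, with 0.01 ± 0.29, were not called. Restricted to the marginal cells of fewest intermediate-marker UMIs, *Sox10* alone was called higher (*Bnc2* was not tested). With a limit of 0.5 on the second class in naming, which left 32 marginal cells, *Sox10* was again the only member higher, while *Ednrb*, *Bmyc* and *Zeb2* were lower in marginal cells. Those 32 cells held 472 CPM of intermediate markers. In the main naming, basal clusters held 3640 and 1849 CPM of them and spindle/root clusters 2355 and 476 CPM. The sides thus differed in intermediate-cell RNA, so the lower calls are not read as a result about these genes. The part of this RNA in them was not tested. Without capture 3 the members called higher were 3 in number, *Sox10*, *Ednrb* and *Bnc2*. The log2 fold change of *Sox10* ranged from 0.86 to 1.46 over all 16 alternatives and was called in each.

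To compare shares of nuclei at equal depth, each nucleus was thinned to 500 UMIs. A UMI of *Bnc2* was then found in 33.7% of intermediate nuclei (exact 95% binomial interval 31.3% to 36.2%) and 0.387% of marginal nuclei, of *Pax3* in 24.95% and 0.348%, of *Zeb2* in 18.1% and 0.735%, of *Ednrb* in 17.95% and 0.928%, and of *Bmyc* in 7.27% and 0.348%. For *Mitf* the shares were 28.4% (26.1% to 30.8%) and 14.8% (13.4% to 16.2%), and for *Sox10* 20.9% (18.9% to 23.1%) and 10.99% (9.81% to 12.3%). Before thinning, 58.5% of intermediate and 37.8% of marginal nuclei had a UMI of *Mitf*, and 48.6% and 30.02% one of *Sox10*. As a background, 0.417% of erythroid nuclei (median 5277 UMIs) and 2.42% of B cell nuclei (median 1569 UMIs) had a *Mitf* UMI at 500 UMIs, and 0.625% and 0.483% a *Sox10* UMI. *Ednrb* was found in 1.04% of erythroid nuclei, above its share in marginal nuclei, whereas its CPM was lower in erythroid (10.6, 7.01 to 15.2) than in marginal nuclei, so that no order is read from these shares. *Zeb2*, which blood cells use, was found in 2.29% of erythroid nuclei, and these give no background for it. *Pax3*, *Bnc2* and *Bmyc* were found in 0 of 480 erythroid nuclei at this depth, with an exact upper bound of 0.766% that covers their shares in marginal nuclei.

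**Figure D3:**
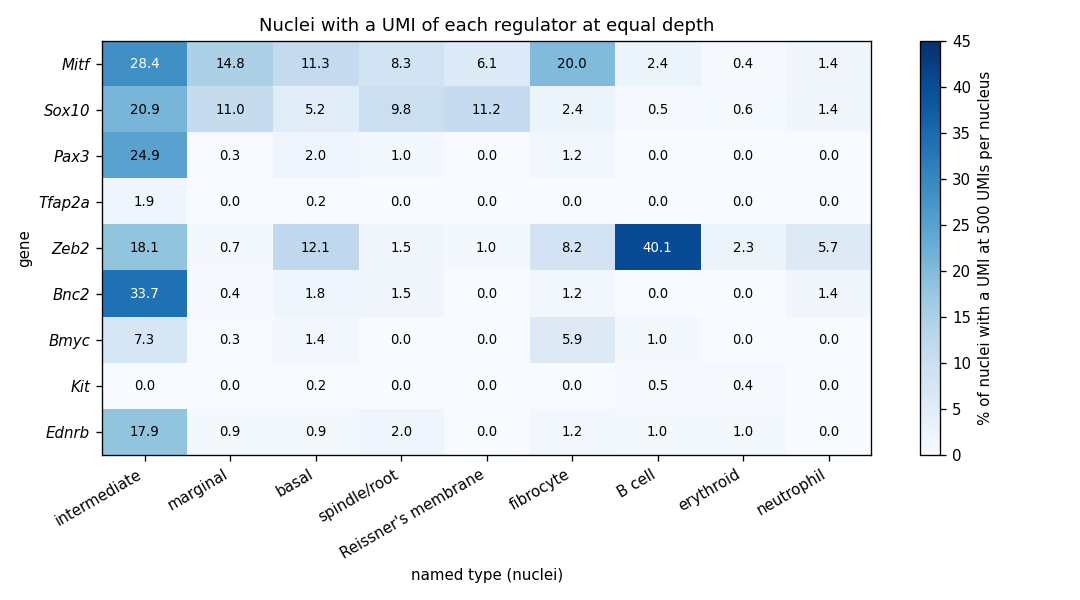
Percentage of nuclei with at least 1 UMI of each gene (rows) in each named type (columns) after every nucleus was thinned to 500 UMIs, as colour and as printed values. The basal column includes the 43 nuclei with intermediate-marker UMIs. The row of *Sox10* is filled in intermediate, marginal, spindle/root and Reissner's membrane nuclei, that of *Mitf* also in fibrocyte and basal nuclei, that of *Zeb2* in B cell, intermediate, basal and fibrocyte nuclei, and those of *Pax3*, *Bnc2* and *Ednrb* in intermediate nuclei.

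The members were also counted together in single nuclei. At 500 UMIs, 83.1% of intermediate nuclei had a UMI of at least 1 of the 9 genes, 47.2% of at least 2 and 17.9% of at least 3. In marginal nuclei the corresponding shares were 26.0%, 2.52% and 0.0387%. In cells thinned to the same depth, 61.2% of intermediate and 29.55% of marginal cells had at least 1 of the genes, and 19.3% and 3.79% at least 2. Basal and spindle/root cells were at 16.4% and 17.2% for at least 1, and at 1.49% and 3.45% for at least 2.

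Levels in the nucleus capture were next set beside those in cells, without a test since the nuclei were not replicated. In intermediate barcodes, the level in nuclei over the mean level in cells was 17.8 for *Bnc2*, 5.50 for *Zeb2*, 4.86 for *Pax3*, 4.31 for *Tfap2a*, 2.14 for *Mitf*, 1.53 for *Sox10*, 0.646 for *Ednrb* and 0.502 for *Bmyc*. Mitochondrial UMIs took 33.0% to 37.9% of the UMIs of intermediate cells and 7.73% of those of intermediate nuclei, and without them the values ran from 12.6 for *Bnc2* to 0.356 for *Bmyc*, with *Sox10* at 1.08. In marginal barcodes the nuclei held 1.99 times the mean *Mitf* level of cells and 1.12 times that of *Sox10*, but 0.154 times that of *Pax3* and 0.0864 times that of *Ednrb*. The fold between intermediate and marginal barcodes was wider in nuclei than in any cell capture for *Pax3*, *Zeb2*, *Bnc2*, *Bmyc* and *Ednrb*. For *Mitf*, 2.20 in nuclei stood beside 2.82, 1.98 and 1.62 in captures 1, 2 and 3, and for *Sox10* 1.99 stood beside 2.12, 1.23 and 1.16, so that the nucleus value lay within the range of the captures. The summed intermediate markers of marginal barcodes were at 4.29% of the intermediate level in nuclei against 27.8% to 34.0% in cells. The difference in these folds between cells and nuclei was not tested.

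The nucleus-to-cell ratio in intermediate barcodes ran with the annotated span of the gene. Over 5893 genes with at least 5 CPM in intermediate cells, its median was 0.573 for genes under 10 kb, 0.878 from 10 to 50 kb, 1.52 from 50 to 100 kb and 2.90 above. *Bmyc* spans 0.983 kb, *Ednrb* 29.8 kb and *Mitf* 214 kb, and the ratios of these 3 lay within the quartiles of their span classes. *Sox10* (10.3 kb), *Tfap2a* (23.1 kb), *Pax3* (95.9 kb), *Zeb2* (134 kb) and *Bnc2* (400 kb) lay above the upper quartiles of 1.32, 1.32, 2.29, 4.62 and 4.62. The study's methods name default Cell Ranger settings and the mm10 reference that 10x Genomics offers, without spelling out introns or strand, and the gene list of the nuclei is longer than that of the cells. The part of span in these ratios was not tested.

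**Figure D4:**
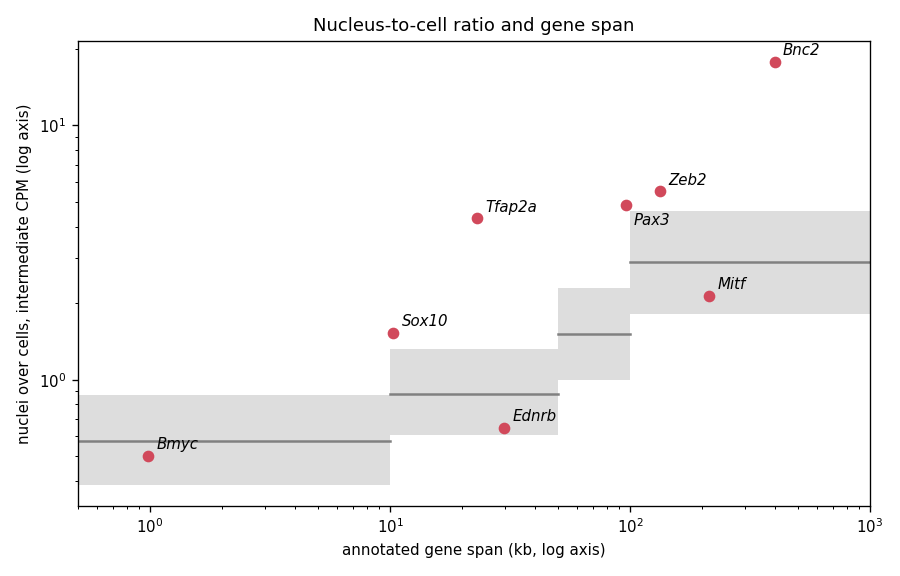
Level in intermediate nuclei over the mean level in intermediate cells (log axis) against annotated gene span in kb (log axis) for 8 members (red, *Kit* left out). Grey lines and bands are the median and quartiles of all genes of the span class, and the medians rise from 0.573 to 2.90. *Bnc2*, at 17.8, is the member farthest above its class.

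The intermediate cells formed clusters of 644 and 335 cells, with mitochondrial shares of 38.8% and 29.1%. *Mitf* (298 and 310 CPM), *Pax3* (124 and 137 CPM), *Zeb2* (73.7 and 66.8 CPM) and *Bnc2* (52.0 and 48.6 CPM) had overlapping Poisson intervals in them, while *Sox10* (244 and 318 CPM) and *Bmyc* (275 and 412 CPM) did not. These CPM include mitochondrial UMIs. Levels without them were not calculated for single clusters, so part of such differences can follow from the mitochondrial shares. The intermediate nuclei formed clusters of 1230 and 241 nuclei, with mitochondrial shares of 3.30% and 18.6% and a median of 1346 and 2744 UMIs. *Mitf* stood at 661 and 652 CPM in these, *Sox10* at 502 and 292 CPM, *Zeb2* at 431 and 275 CPM, *Bmyc* at 138 and 214 CPM and *Ednrb* at 356 and 566 CPM. The clusters of cells and those of nuclei were formed separately and were not matched to each other, so their orders are not compared.

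Related genes were taken from lists outside the members, and their counts stand beside 17.5% of all genes higher and 19.2% lower in intermediate against marginal cells, and 11.4% and 19.0% in nuclei. Of 14 further MITF targets and melanosome genes, 9 passed the filter in cells, and 8 of these were higher and 0 lower in intermediate against marginal cells, with a median log2 fold change of 1.59 against 0.00 over all genes. They included *Gpnmb* (1.64 ± 0.14, SE), a melanosome glycoprotein, *Slc45a2* (1.59 ± 0.14), a transporter of melanosomes, and *Rab27a* (2.12 ± 0.22), which carries melanosomes to the cell edge. In nuclei 10 of 13 with enough UMIs were at least 2-fold higher in the intermediate type and 0 in the marginal type, and *Gpnmb* was at 1313 CPM in intermediate and 90.2 CPM in marginal nuclei.

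Of 19 further neural crest regulators, 8 passed the filter, and 2 were higher and 1 lower in intermediate against marginal cells (median log2 fold change 0.49), near the shares over all genes. In nuclei 7 had enough UMIs, of which 4 were at least 2-fold higher in the intermediate type and 1 in the marginal type. These stand beside 11.4% and 19.0% of all genes. *Zeb1*, the paralog of *Zeb2*, rose by 1.88 ± 0.33 (SE) and *Ets1* by 1.49 ± 0.31 on the log2 scale. *Sox9*, which shares the SOX group E with *Sox10*, was lower by 3.36 on that scale (SE 0.20), with 11.8 ± 5.17 CPM (SD, n = 3) in intermediate and 159 ± 29.0 CPM in marginal cells, and 9.64 and 58.7 CPM in nuclei. Both *Sox10* and *Sox9* were thus found in marginal cells, and their order between the types was opposite.

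Of 13 other regulators of melanocyte genes, among them relatives of MITF, 7 passed the filter, with 2 higher and 2 lower (median 0.08). *Tbx2*, a T-box repressor in melanocytes, was higher by 1.82 ± 0.15 (SE) on the log2 scale, and its relative *Tbx3* stood at 105 ± 13.2 CPM (SD, n = 3) in marginal cells and 1.05 ± 0.45 CPM in intermediate cells. *Ctnnb1*, which encodes beta-catenin, was also higher (0.97 ± 0.14), and *Smarca4*, a chromatin remodeller, fell by 0.85 (SE 0.18). Of 12 genes of the MYC and MAX family other than *Bmyc*, 7 passed, with *Max*, the shared partner of MYC proteins, and *Mlxip* higher and *Mxi1* lower (median 0.42). *Max* stood at 139 ± 1.93 CPM (SD, n = 3) in intermediate and 67.2 ± 19.4 CPM in marginal cells.

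Of 17 genes of KIT and endothelin signalling, 8 passed, with 0 higher and 2 lower in intermediate cells (median -0.26), the latter near the share over all genes. These were *Erbb3*, the neuregulin receptor of glia and neural crest, at 1.15 ± 0.54 CPM (SD, n = 3) in intermediate and 23.9 ± 12.1 CPM in marginal cells, and *Ptpn11*, the phosphatase SHP2. Of 12 regulators of otic epithelium, 8 passed, with 1 higher and 7 lower (median -4.80). *Pax2*, *Gata3*, *Lmx1a* and *Hmx2* stood at 78.9 to 190 CPM in marginal cells and 0.51 to 3.36 CPM in intermediate cells, and *Eya1* was the gene called higher. In nuclei 8 of 9 were at least 2-fold higher in the marginal type, with *Lmx1a* at 988 CPM in marginal and 13.7 CPM in intermediate nuclei.

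For each member, the 2 genes with the most similar pattern were taken by Pearson's r of log2(CPM + 1) over the 15 sums of the 4 main types in cells and nuclei, among 6363 genes. The sums share types, captures and library depth, so r is a description. They were *Gpnmb* and *Dkk3* for *Ednrb* (0.98 each), *Snx32* (0.97) and *Arsb* (0.96) for *Mitf*, *Sema6a* (0.96) and *Aff3* (0.91) for *Zeb2*, *Camk2n1* and *Fxyd1* for *Bmyc*, *Edil3* and *Myo5a* for *Tfap2a*, *Sgip1* and *Opcml* for *Bnc2*, *Cdh2* and *Chn2* for *Pax3*, and *St3gal4* (0.92) and *Sirpa* (0.91) for *Sox10*. For *Kit*, with too few UMIs to form a pattern, the highest r was 0.68.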

How the data were processed

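UMIs were measured in 3 captures of cells and 1 capture of nuclei, grouped by the titles in the labels. Per the labels' processing notes, the authors used Cell Ranger 2.0.0 and mm10, at default settings in the study's methods, and the deposited matrices hold unnormalized counts of UMIs. The annotation behind the longer gene list of the nuclei is not given in the sources used here.

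A minimum of 200 genes removed 14 to 99 barcodes per cell capture and 356 nuclei, and doublets scored with Scrublet were removed (1, 15 and 20 cells, 978 nuclei). Cells and nuclei were clustered separately in Seurat 5.3.0 (2000 variable genes, resolution 0.8, 41 and 39 principal components), and mixed clusters were clustered again. The 9 members and 87 listed genes, 96 in all, were kept out of the variable genes. A cluster was named if at least 3 markers of a class were raised at least 2-fold and the second class reached no more than 0.67 of the first. A further rule, that a main type must have the highest relative level of its markers, was added after clusters and member levels had been seen. It left a cluster of 357 cells unnamed.

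UMIs were summed per capture and type with at least 5 cells (11 sums, 90865 to 2825823 UMIs) and fitted in edgeR 4.0.16 with filterByExpr, TMM, the capture as a block and a robust quasi-likelihood fit. SE is the log2 fold change divided by the square root of F. The script was tested on simulated data. In nuclei, intervals are exact Poisson for CPM, exact binomial for shares and exact conditional binomial for folds. They cover counting error only. The capture pairs the sums of 1 suspension. Deviations from type means correlated at -0.00011 to 0.181 over 15 pairs and 5865 genes. Genes named outside the members were, from each list, up to 4 called genes of lowest adjusted p in intermediate against marginal cells, and the genes nearest in pattern. *Eya1* and *Dct* with other markers were named after their values were seen. The members and lists were chosen with earlier results of these data known. Alternatives were DESeq2 1.42.0, other scaling, filters, clusterings and captures left out. Gene positions come from GENCODE vM21, and upstream windows from RefSeq.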

Additional observations from a re-analysis of the deposited data

How the results depend on the processing

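The 7 members tested stayed called higher in intermediate than in marginal cells under all 17 alternatives in which each was tested (*Sox10* by 0.45 to 1.11, *Mitf* by 0.74 to 3.05, *Bnc2* by 1.24 to 3.89, and *Pax3*, *Zeb2*, *Bmyc* and *Ednrb* over the wider ranges given with the comparison, on the log2 scale), and *Bnc2* was not tested in 2 of them. Against the mean of the other types they stayed higher in all 16. Calls over all genes moved more. Intermediate against marginal cells gave 1116 genes higher and 1225 lower, which became 663 and 2235 without TMM scaling, 654 and 711 with the limit of 0.5 on the second class, 711 higher with DESeq2 and 760 lower at resolution 0.4. Intermediate against the other types gave 1193 and 1105, which became 706 and 2027 without TMM (51.9% against 25.8% higher), 671 and 693 with the limit of 0.5 and 2038 higher with no filter. Leaving out 1 capture gave 713 to 1015 lower, the least without capture 2. Marginal against basal and spindle/root cells gave 1136 and 871, which became 679 higher with the limit of 0.5, and 534 to 801 lower without 1 capture, the least without capture 2.

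In that comparison of cells, the members called changed. Of 5 members higher, 3 to 5 remained without 1 capture, and 1 with 20 principal components, 1 with the marginal cells of fewest intermediate-marker UMIs and 1 with the limit of 0.5, which also gave 3 lower. The log2 difference of *Pax3* turned to -0.13 with the fewest intermediate-marker UMIs and -1.27 with the limit of 0.5, where *Bmyc* was at -2.42, *Mitf* at -0.45 and *Ednrb* at -3.16. The cause was not tested beyond the marker levels given with these cells. Resolution 0.4 gave no spindle/root type, so 2 comparisons have no value there.

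With no replicate block the captures' pairing was ignored, and the calls were 1037 and 1182, 1152 and 1085, and 1119 and 842, with 7, 7 and 5 members higher as before. No paired analysis was possible because cells and nuclei came from different suspensions for the comparison of cells with nuclei. In nuclei, 7 of 100 ratios moved, and no member turned direction. With doublets kept, the fold of *Pax3* went from 106.9 to 66.8, of *Bmyc* from 15.9 to 9.76 and of *Ednrb* from 24.4 to 17.2, and *Sox10* reached 2.01. With the limit of 0.5, *Zeb2* went from 31.9 to 50.6. With the marginal nuclei of fewest intermediate-marker UMIs, *Bmyc* was at 28.1 and *Ednrb* at 35.2, and *Kitl* had 0 UMIs left in marginal nuclei. The nucleus values rest on 1 library, and *Kit* and *Tfap2a* in cells on few UMIs.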
